A study of Mus musculus with 12 samples.

Results

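Gonad cells of mouse embryos that lacked the +KTS splice form of Wt1 were examined. Among them, 5122 cells carried transcripts of Cyp11a1 and of Inha together and few of the pre-granulosa genes Foxl2, Fst and Irx3. These cells, called the Cyp11a1/Inha cells or the members below, were 5122 of the 30281 cells that passed the filter in the 4 +KTS KO libraries and of the 83513 that passed it in all 12 libraries. A cell was counted when it had at least 1000 detected genes, at most 10% of its UMIs (unique molecular identifiers, each of which marks 1 captured transcript molecule) from mitochondrial genes, at least 2 UMIs of Cyp11a1 and at least 2 of Inha, fewer than 3 UMIs of Foxl2, Fst and Irx3 together, and fewer than 10 UMIs of the germ cell genes Dppa5a, Pou5f1, Ddx4 and Dazl together. The thresholds use measured transcripts, so the levels of these 9 genes, and of Pnmt, which had been used with Cyp11a1 and Inha to propose the cells, are given as a description without a test.

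The study profiled single cells of XX and XY fetal gonads at embryonic day 12 from wild-type (WT), -KTS KO and +KTS KO mice, with 2 libraries for each of the 6 groups. All lines were kept on a mixed B6CBAF1/JRj background. The +KTS KO embryos came from the Frasier line, a mouse model with a mutated splice donor site in intron 9 of Wt1, which stops the +KTS form from being made, and by the study's description carried the mutation on both alleles. The -KTS KO embryos were homozygous for a change that removes the other form. Both changes are in the germline and are carried by every cell of the embryo. The gonads were dissociated with trypsin-EDTA and no sort is described, so the cells of a library also include endothelial, blood, germ and duct cells.

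Wt1 encodes a zinc finger transcription factor of the early gonad, and alternative splicing adds or leaves out a lysine, a threonine and a serine (KTS) between the last zinc fingers. Supporting cells of the fetal gonad pass through a pre-supporting state, in which Runx1, Wnt6, Nr0b1 and Gadd45g are expressed, before they become Sertoli cells in a testis or pre-granulosa cells in an ovary. Cyp11a1 is the mitochondrial enzyme that cleaves the side chain of cholesterol, the first step of all steroid synthesis, and is best known from Leydig cells and the adrenal cortex. Inha encodes the alpha subunit of inhibin, which opposes activin. Pnmt makes epinephrine from norepinephrine and is best known from the chromaffin cells of the adrenal medulla.

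The 12 libraries held 108111924 to 147968666 UMIs each. XY +KTS KO 1 stood apart from the other 3 +KTS KO libraries: it gave 227 members, whereas XX +KTS KO 1 gave 1797, XX +KTS KO 2 gave 1339 and XY +KTS KO 2 gave 1759. The summed level of 16 immediate early genes in its members was 3945 CPM (UMIs of a gene per 1000000 UMIs of the class of cells) against 695 to 814 in the others. Its embryo material was also the oldest of the +KTS KO libraries by tail somite number, so stage and library cannot be told apart, and the number of genes called without this library is given for each comparison. Of the members, 115 had a barcode that also occurred in another library, and for 10 the other cell was a member as well. The sum of Wt1 transcripts cannot check the genotype, since the 3′ tags do not distinguish the splice forms. Its level in the members was 246 CPM in XX +KTS KO 1, 224 in XX +KTS KO 2, 328 in XY +KTS KO 1 and 224 in XY +KTS KO 2, against 244, 237, 311 and 219 in the other gonadal somatic cells of the same libraries. Nothing in the labels says whether the 2 libraries of a group came from separate litters, so all tests measure the spread between these libraries only.

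The Cyp11a1/Inha cells were common in the +KTS KO and scarce in the other genotypes. They made up 21.9% of the gonadal somatic cells of XX +KTS KO 1 (95% exact binomial interval 21.0 to 22.8), 31.4% of XX +KTS KO 2 (30.0 to 32.8), 3.38% of XY +KTS KO 1 (2.96 to 3.85) and 24.6% of XY +KTS KO 2 (23.6 to 25.7), a mean of 20.3% ± 11.98 (SD, n = 4 libraries). The same thresholds were met by 0.763% and 0.615% of the gonadal somatic cells in the XX WT libraries and by 1.84% and 5.12% in the XY WT libraries (2.08% ± 2.10, n = 4). In the -KTS KO libraries the share was 0.0658% to 0.299% (0.180% ± 0.106, n = 4). XY +KTS KO 1, the lowest +KTS KO library, lay below XY WT 2, the highest WT library, and the other 3 lay above every WT library. These shares are set by the rule and carry no test, and the intervals cover counting error only.

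Since a deeper cell meets a threshold on UMIs more easily, the count was repeated on cells thinned to 5000 UMIs, leaving out shallower cells. The shares then were 10.7%, 13.7%, 1.35% and 10.7% in the +KTS KO libraries, 0.290% to 1.04% in WT and 0 to 0.0651% in the -KTS KO. In XX -KTS KO 1 the thresholds were met by 0 of 4075 thinned cells, which allows a share of up to 0.0736%. Before thinning, the median member held 12087, 19475, 13493 and 14371 UMIs in XX +KTS KO 1, XX +KTS KO 2, XY +KTS KO 1 and XY +KTS KO 2, and the other gonadal somatic cells 11845, 18535, 9783 and 13667. The gap was widest in XY +KTS KO 1.

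**Figure D1:**
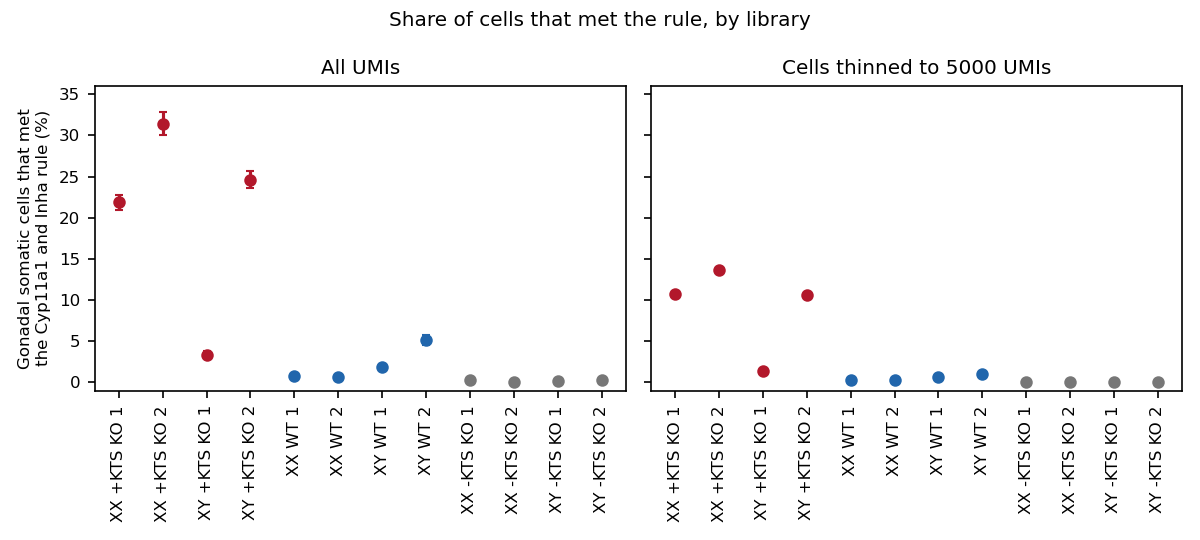
Percent of gonadal somatic cells that met the Cyp11a1 and Inha rule in each of the 12 libraries, counted on all UMIs (left, with 95% exact binomial intervals) and on cells thinned to 5000 UMIs (right). The +KTS KO libraries sit at 21.9, 31.4, 3.38 and 24.6% on the left, the WT libraries between 0.615 and 5.12% and the -KTS KO libraries between 0.0658 and 0.299%.

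Cyp11a1 separated the genotypes further than Inha did. At least 2 UMIs of Cyp11a1 were found in 15.3 to 37.9% of the gonadal somatic cells of the +KTS KO libraries, in 2.83 to 8.36% in WT and in 0.0877 to 0.470% in the -KTS KO. For Inha the ranges were 26.5 to 52.4%, 19.7 to 28.8% and 6.51 to 11.9%. Of the cells that met both, the share set aside for 3 or more UMIs of Foxl2, Fst and Irx3 was 79.0% and 85.0% in the XX WT libraries, 2.29% and 10.6% in the XY WT libraries, and 19.5%, 9.62%, 59.9% and 14.3% in the +KTS KO libraries. In XX WT and in XY +KTS KO 1, most cells with both transcripts thus lay outside the rule for their pre-granulosa genes.

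The median member carried 5, 7, 4 and 5 UMIs of Cyp11a1 in XX +KTS KO 1, XX +KTS KO 2, XY +KTS KO 1 and XY +KTS KO 2 (the order used for all series of 4 values below), with a highest count of 67. For Inha the medians were 6, 9, 3 and 7 UMIs. Many cells lay close to the thresholds: 920 members had exactly 2 UMIs of Cyp11a1, and 1301 further cells met every other condition with 1 UMI. Pnmt stood at 69.0 CPM in the former and 46.4 in the latter, Wnt6 at 707 and 643, and Runx1 at 160 and 141. At the Inha threshold 569 members had 2 UMIs and 609 cells just outside had 1, with Pnmt at 69.4 and 72.0. At the upper limit on Foxl2, Fst and Irx3, 543 members had a sum of 2 and 349 cells just outside had 3, with Pnmt at 98.9 and 85.4. At the germ cell limit 2 members had a sum of 5 to 9 and 43 further cells a sum of 10 or more. Except for Pnmt at the Cyp11a1 threshold and for the germ cell limit, cells just inside and just outside were close in these genes.

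Summed over the members, Cyp11a1 (mouse chromosome 9, 58006411 to 58027023 in mm10) stood at 425, 432, 355 and 378 CPM, against 50.1 to 70.1 in the other gonadal somatic cells of the same libraries. Inha (chromosome 1, 75507077 to 75510366) stood at 509, 520.0, 274 and 507, against 99.4 to 155; its level in XY +KTS KO 1 was the lowest of the 4. Pnmt (chromosome 11, 98386450 to 98388181) stood at 125, 91.3, 78.1 and 68.9, against 18.5 to 32.0. In the WT cells that met the rule, Cyp11a1 was at 416 and 289 in XX and 259.6 and 207 in XY, Inha at 391, 273, 495 and 336, and Pnmt at 3.95 and 13.2 in XX and 57.8 and 51.3 in XY. Pnmt was low in the XX WT cells, and the other 6 libraries lay between 51.3 and 125.

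A Pnmt UMI was not found in every member. The median member had 0 UMIs of it in all 4 libraries, 46.2, 47.5, 37.4 and 38.9% had at least 1, and the highest count was 49. At 5000 UMIs per cell a Pnmt UMI was seen in 29.9, 24.4, 23.4 and 20.3% of the members, in 6.32 to 9.75% of the other gonadal somatic cells and in 0.490 to 2.33% of the endothelial cells, which serve as the measure of free RNA. The endothelial cells were deeper before thinning, with medians of 15134 to 26806 UMIs. At these levels and depths a cell that transcribes Pnmt can show 0 UMIs, so the shares count cells with a UMI and not cells that express the gene.

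**Figure D2:**
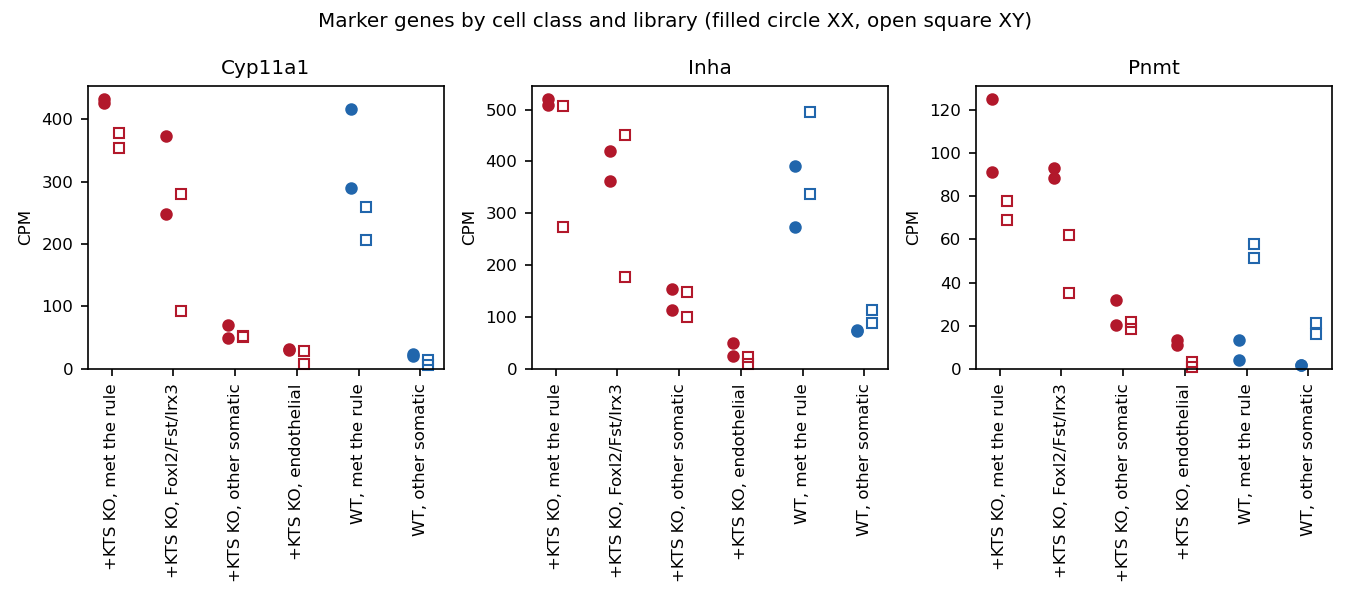
Summed level of Cyp11a1, Inha and Pnmt (CPM, axes from 0) in each library for the cells that met the rule, the Foxl2/Fst/Irx3 cells, the other gonadal somatic cells and the endothelial cells of the +KTS KO, and for the cells that met the rule and the other somatic cells of WT. Pnmt sits between 68.9 and 125 in the members and at 3.95 and 13.2 in the XX WT cells.

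Against the other gonadal somatic cells of their own libraries, the members differed in a large part of the transcriptome. With edgeR's quasi-likelihood test on UMIs summed per library and class, with library as a block and Benjamini-Hochberg adjustment over all genes (FDR 0.05), 4534 of 16959 genes were higher in the members and 4006 lower, which is 50.4% of the genes tested. The shares below are read against that background, of 26.7% higher and 23.6% lower. The members were picked by their transcripts, and the classes come from the same libraries, so these are comparisons of cells on either side of a gate and not of sorted populations. Without XY +KTS KO 1 the test called 8816 genes in place of 8540.

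All 7 pre-supporting genes were higher in the members, with a median log2 difference of 1.15 (all genes 0.03). Gadd45g, a scaffold of the stress kinase pathway that acts ahead of Sry, stood at 1034, 723, 634 and 906 CPM in the members and at 485, 250.5, 319.9 and 374 in the other cells (log2 difference 1.25 ± 0.08, SE). Wnt6, a Wnt ligand, stood at 792, 748, 820.3 and 721 against 411, 273, 504 and 329.5 (1.09 ± 0.11). The groups did not overlap for either gene. Klhl23 was higher by 1.19 ± 0.11, Nr0b1, the nuclear receptor Dax1, by 1.15 ± 0.09, the transcription factor Runx1 by 0.96 ± 0.11 and Lor by 0.71 ± 0.09. Sprr2d, a gene of the cornified envelope family, varied most between libraries, at 112, 33.0, 69.9 and 38.1 in the members and 29.8, 5.10, 27.3 and 8.16 in the others (2.07 ± 0.18). FDR was at most 7.9e-06 for each of the 7, and all 7 kept their call without XY +KTS KO 1.

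The steroid synthesis list rose in part, with 8 of 13 tested genes higher and none lower (median 0.67). The partners that pass electrons to Cyp11a1 were both higher: Fdxr, ferredoxin reductase, stood at 161, 196, 115 and 162 CPM against 97.9, 86.9, 76.0 and 84.7 (0.90 ± 0.08, FDR 3.2e-07 in edgeR's quasi-likelihood test), and Fdx1, ferredoxin, at 121, 127, 120.2 and 123 against 88.3, 90.2, 75.0 and 94.6 (0.52 ± 0.06). Por, which serves the microsomal enzymes, was higher by 0.67 ± 0.09, and Tspo, a cholesterol-binding protein of the outer mitochondrial membrane, by 0.43 ± 0.06. Star, which carries cholesterol into mitochondria, showed no such difference: it stood at 19.7, 22.2, 42.4 and 10.7 in the members and at 17.3, 18.4, 24.0 and 11.9 in the others (0.28 ± 0.12, FDR 0.070). Cyp17a1, the next enzyme towards androgens, was higher by 2.09 ± 0.15 but low in absolute terms, at 10.4, 9.38, 17.2 and 7.24 against 1.70 to 3.63. Hsd17b1 and Hsd17b3, reductases of the last steps to estradiol and testosterone, were higher by 1.89 ± 0.30 and 1.27 ± 0.18 at levels of at most 6.96. Hsd3b6 was also called higher (1.83 ± 0.50), a call that was lost without XX +KTS KO 1 (1.34) or XY +KTS KO 2 (1.33) and that turned to -1.39 when members with UMIs of other cell types were left out.

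Leydig cell, adrenal and chromaffin genes were at low levels in the members. Hsd3b1, the enzyme after Cyp11a1 in fetal Leydig cells, stood at 0.840, 0.818 and 0.313 CPM in XX +KTS KO 1, XX +KTS KO 2 and XY +KTS KO 2 and at 24.6 in XY +KTS KO 1. In 22 of the 5122 members Hsd3b1 and Insl3 summed to 3 or more UMIs, and 12 of the 22 were among the 227 members of XY +KTS KO 1 (5.29% of its members, against 0.167 to 0.299% elsewhere). Those 12 cells held 107 of the 141 UMIs of Hsd3b1 and Insl3 in XY +KTS KO 1, so a few cells carried most of the summed level of the pair there. Insl3, the Leydig hormone, was higher in the members (2.61 ± 0.22, edgeR's quasi-likelihood test, FDR 1.8e-07) at 2.12, 1.85, 16.7 and 2.23, and the luteinizing hormone receptor gene Lhcgr by 1.92 ± 0.19 at 3.72 to 9.94. Of the adrenal genes, no UMI of Cyp21a1 or Cyp11b1 was found in the members, the ACTH receptor gene Mc2r was lower (-1.38 ± 0.29), and its accessory protein gene Mrap was higher (1.60 ± 0.20) at 3.98 to 7.60. Th had no UMI in the members and Dbh no more than 0.0355 CPM; these enzymes precede Pnmt in catecholamine synthesis. Ddc, the enzyme between them, stood at 3.08 to 4.09 in the members and 3.45 to 5.41 in the others (-0.42 ± 0.15), and its call was lost without XX +KTS KO 1 (-0.43), XX +KTS KO 2 (-0.33) or XY +KTS KO 2 (-0.43).

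Of 22 genes of cholesterol synthesis and uptake, 11 were higher (7 without XX +KTS KO 2) and none lower, with a median of 0.15 (all genes 0.03). Mvd, mevalonate diphosphate decarboxylase, stood at 52.4, 50.9, 52.9 and 46.9 CPM against 31.2, 23.4, 30.3 and 24.7 in the other cells (0.94 ± 0.08, edgeR's quasi-likelihood test, FDR 1.3e-07). Scarb1, the receptor that takes up cholesterol from high-density lipoprotein, stood at 38.0, 42.8, 62.6 and 30.7 against 23.8, 21.3, 33.8 and 17.7 (0.87 ± 0.08). The sterol isomerase gene Ebp was higher by 0.73 ± 0.07 and Hmgcs1, which starts the pathway, by 0.27 ± 0.07. The other 11 genes did not pass the test, and without XY +KTS KO 1 the count was 9 of 22.

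In the inhibin and activin list, 3 of 9 genes were higher and 2 lower, near the background. Inhbb, the subunit that forms inhibin B with Inha, stood at 97.9, 109, 132 and 84.6 CPM in the members and at 54.9, 50.8, 81.2 and 43.1 in the other cells (0.94 ± 0.07, edgeR's quasi-likelihood test, FDR 6.4e-08). Inhba, the subunit of inhibin A and activin A, was lower by 1.86 ± 0.49 on the log2 scale but close to silent in both classes, at no more than 2.18. Fstl3, which binds activin, was higher by 0.67 ± 0.14. Smad2 (0.20) lost its call without XY +KTS KO 1 (0.13) or XY +KTS KO 2 (0.19), and the activin receptor gene Acvr2b (-0.19) without XY +KTS KO 2 (-0.15).

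Among gonad transcription factors 4 of 11 were higher and 4 lower, shares that were not read as a result against the background of 26.7% and 23.6%. Nr5a1, the steroidogenic factor that activates Cyp11a1 and Inha in other steroidogenic cells, stood at 75.5, 99.3, 120.4 and 81.5 CPM against 61.1, 62.1, 82.3 and 52.9 (0.57 ± 0.09, edgeR's quasi-likelihood test, FDR 7.7e-05). Gata4 was higher by 0.60 ± 0.06 and its cofactor Zfpm2 by 0.47 ± 0.08. Lhx9, a factor of the coelomic epithelium and early gonad, was lower, at 106, 121, 130.4 and 123 against 286, 294, 309 and 253 (-1.22 ± 0.07), as were Cbx2 (-1.28 ± 0.12), Osr1 (-2.43 ± 0.26) and Six4 (-1.01 ± 0.19). Wt1 did not differ by the test (0.04 ± 0.08, FDR 0.74).

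Genes of both later supporting fates were higher in the summed members, which does not show that both were on in the same cell. Of 11 Sertoli genes 7 were higher and 1, Fgf9, lower (median 1.08): Amh, the anti-Müllerian hormone, stood at 48.3, 14.8, 119.6 and 26.2 CPM against 10.9, 4.90, 25.4 and 6.60 (2.04 ± 0.10, edgeR's quasi-likelihood test, FDR 1.4e-09), Dhh was higher by 1.72 ± 0.11, Ptgds by 1.81 ± 0.09 and Cst9 by 1.74 ± 0.14. Sox9, a direct target of Sry, stood at 3.40, 3.34, 106 and 9.39 in the members. At least 2 of its UMIs were found in 0.612, 1.05, 18.1 and 2.67% of them. Sox9 was thus highest in XY +KTS KO 1, as Hsd3b1 was, and the difference from the other cells did not pass the test (0.33 ± 0.27, FDR 0.33). Of 7 pre-granulosa genes that the rule did not use, 4 were higher and 1 lower (median 0.44): Kitl, the Kit ligand, by 1.38 ± 0.20, Wnt4 by 1.03 ± 0.13, Cdkn1b by 1.00 ± 0.12 and Rspo1 by 0.44 ± 0.06. Bmp2 was called lower at -0.47 ± 0.16, a call that was lost without XX +KTS KO 1 (-0.32).

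Genes of dividing cells were lower throughout. All 10 G2/M genes were lower in the members (median -1.77) and all 10 S phase genes (median -0.81), also without XY +KTS KO 1. Without XX +KTS KO 1, XX +KTS KO 2 or XY +KTS KO 2 the S phase count was 9, 8 and 8. Top2a, a topoisomerase of dividing cells, stood at 35.4, 48.0, 33.6 and 35.0 CPM in the members and at 157, 181, 151 and 149 in the other cells (-2.03 ± 0.13, edgeR's quasi-likelihood test, FDR 1.2e-08). Mki67 was lower by 1.83 ± 0.10, Cdk1 by 1.69 ± 0.10 and Plk1 by 2.04 ± 0.13 on the log2 scale, and of the S phase genes Rrm2 by 1.88 ± 0.09, Pcna by 1.15 ± 0.08 and Mcm3 by 1.12 ± 0.06. Of 4 inhibitors of cyclin-dependent kinases, Cdkn1b, Cdkn1c (0.59 ± 0.08) and Cdkn1a (0.49 ± 0.10) were higher and Cdkn2c lower (-1.24 ± 0.27). Cdkn1c stood at 1465, 1260, 2167 and 975 against 932, 866, 1274 and 785.

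Large falls were seen in genes of the other somatic lineages. Of 9 interstitial progenitor genes 7 were lower (median -2.03) and 1, the hedgehog receptor gene Ptch1, higher (0.48 ± 0.09). Tcf21 stood at 35.9, 34.9, 73.4 and 35.5 CPM in the members against 204, 342, 215 and 279 (-2.62 ± 0.19, edgeR's quasi-likelihood test, FDR 3.9e-08), and Nr2f2 and Pdgfra were lower by 0.99 ± 0.08 and 2.03 ± 0.17 on the log2 scale. Of 7 coelomic epithelium genes 6 were lower (median -1.96), among them Upk3b, a uroplakin of the mesothelium, at 7.08, 4.09, 4.09 and 3.48 against 50.1, 52.9, 44.3 and 39.9 (-3.28 ± 0.15). The 10 largest falls by the rule for named genes also held the matrix genes Dcn (-3.38 ± 0.12), Col1a1 (-3.19 ± 0.11), Col1a2 (-2.82 ± 0.16) and Fn1 (-2.86 ± 0.10), the mesenchymal genes Cdh11 (-3.09 ± 0.16), Twist1 (-2.94 ± 0.25) and Islr (-2.82 ± 0.22), the growth factor gene Ptn (-2.86 ± 0.15) and Tm4sf5 (-2.97 ± 0.12). Ptn showed the widest range in the other cells, 160.1 to 663, and 35.5 to 62.7 in the members.

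Of the 10 largest rises by the rule for named genes, 5 were globins and the other 5 were Ctrb1, Klk1, Tgm3 and, as given above, Sprr2d and Amh. Ctrb1, which encodes chymotrypsinogen, stood at 250.0, 162, 221 and 174 CPM in the members and at 53.3, 18.4, 66.8 and 31.1 in the other cells (2.42 ± 0.22, edgeR's quasi-likelihood test, FDR 3.7e-07). The kallikrein gene Klk1 was higher by 2.34 ± 0.18 and the transglutaminase gene Tgm3 by 2.13 ± 0.14. Of the globins, Hba-x stood at 2119, 694, 41.5 and 2433 against 31.5 to 117 (3.79 ± 0.62). The other somatic cells had been gated against endothelial, immune, erythroid, perivascular and duct genes and the members had not, and 135 members carried 3 or more UMIs of such a gene set (65 duct, 31 endothelial, 25 erythroid, 11 perivascular and 10 immune, some of more than 1 set). With these members left out Hba-x moved to -0.19, Hbb-y from 3.50 to -0.24 and the endothelial gene Emcn from 1.83 to -1.73. The summed level of 5 erythroid genes was 277 to 6733 CPM in the members and 102 to 404 in the other cells, that of 5 endothelial genes 43.3 to 62.6 and 40.3 to 46.4, and that of 5 immune genes 0.292 to 3.69 and 0.357 to 0.580. The calls on the pre-supporting, steroid, cholesterol and cell cycle lists were made in the same numbers without the 135 members, with the exception of the steroid list, where 8 genes were higher and 1 lower.

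**Figure D3:**
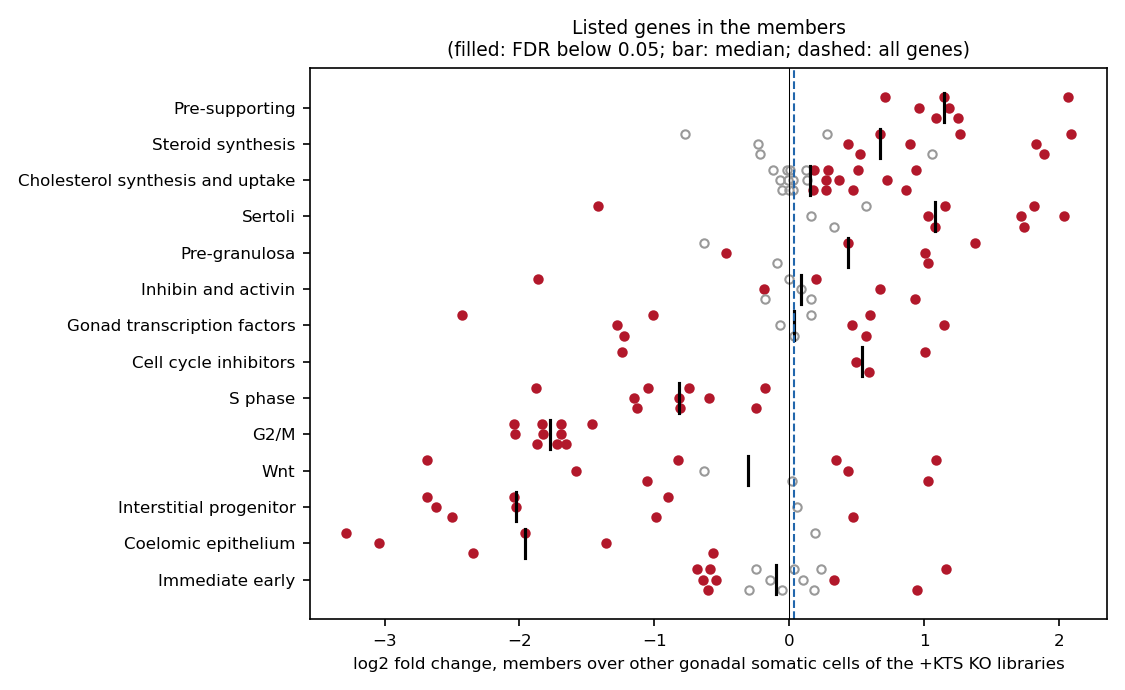
Log2 fold change of each listed gene in the members over the other gonadal somatic cells of the +KTS KO libraries, by list (filled circles passed FDR 0.05, open circles did not; black bars are list medians, the dashed line the median of all genes at 0.03). Pre-supporting genes lie to the right with a median of 1.15, and G2/M, interstitial and coelomic genes to the left with medians of -1.77, -2.03 and -1.96.

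The members themselves varied along the level of Cyp11a1. When the members of each library were split into tertiles by Cyp11a1 per UMI, Inha was higher in the highest than in the lowest tertile of 4 of 4 libraries, by 1.51 to 1.77 times. Wnt6 was 1.19 to 1.35 times and Runx1 1.13 to 1.47 times higher in 4 of 4, Scarb1 1.07 to 1.56 times, Cst9 1.22 to 1.76 times and Star 1.31 to 2.97 times. Pnmt was higher in 3 of 4 libraries, with ratios from 0.624 to 2.28, as were Fdxr (0.952 to 1.24) and Nr5a1 (0.888 to 1.12), and Sox9 was higher in 2 of 4 (0.461 to 2.21). Top2a and Tcf21 went the other way in 4 of 4: Top2a fell from 56.0 to 89.4 CPM in the lowest tertile to 5.05 to 8.93 in the highest, and Tcf21 from 57.6 to 98.4 to 8.21 to 60.6. Lhx9 was lower in 4 of 4 libraries, and Nr2f2, the other interstitial gene examined, was lower in 2 of 4, with ratios from 0.905 to 1.10. The tertiles use a gene of the rule, and Inha is another gene of the rule, so these values are a description. The depth of the cells also moved with the tertiles. In a shallower cell the required 2 UMIs of Inha are a larger part of all UMIs, so the rule itself raises the lowest possible Inha level there. From the lowest to the highest tertile the median fell from 13311 to 11176 UMIs in XX +KTS KO 1, from 20945 to 18276 in XX +KTS KO 2, from 18623 to 8357 in XY +KTS KO 1 and from 15800 to 13702 in XY +KTS KO 2. The part of depth in these values was not tested.

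**Figure D4:**
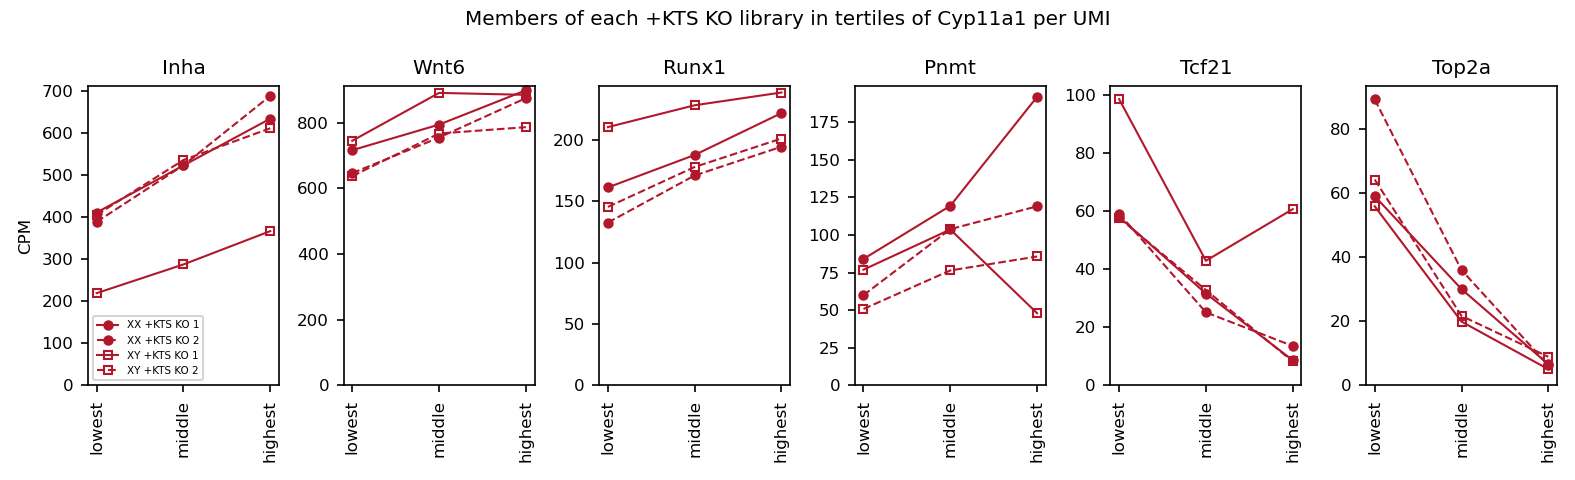
Summed level (CPM, axes from 0) of Inha, Wnt6, Runx1, Pnmt, Tcf21 and Top2a in the lowest, middle and highest tertile of Cyp11a1 per UMI among the members of each +KTS KO library (circles XX, squares XY). Top2a falls in all 4 libraries to between 5.05 and 8.93 in the highest tertile, and Pnmt takes no common course.

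The nearest class set apart by the rule were the +KTS KO gonadal somatic cells with 3 or more UMIs of Foxl2, Fst and Irx3, 3036 cells in all. They made up 10.2, 4.51, 24.5 and 6.19% of the gonadal somatic cells, so the library with the fewest members, XY +KTS KO 1, had the most of them. Their levels of Cyp11a1 were 249, 374, 93.1 and 279.6 CPM, of Inha 362, 421, 177 and 452, and of Pnmt 88.7, 93.2, 35.3 and 61.9, between the members and the other somatic cells except for Pnmt in XX +KTS KO 2. A single UMI of Foxl2 or more was also found in 14.9 to 25.1% of the members, and among the WT cells that met the rule in 16.7 and 27.0% in XX and in 1.54 and 4.80% in XY.

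Between these 2 classes the test called 457 of 14648 genes higher in the members (3.12%) and 288 lower (1.97%), 5.09% in all. The 10 G2/M genes were again lower in the members (median -0.61, all genes 0.00), with Top2a at 35.4, 48.0, 33.6 and 35.0 CPM against 74.8, 86.5, 73.7 and 58.2 (-0.88 ± 0.07, edgeR's quasi-likelihood test, FDR 0.00020), Mki67 lower by 0.79 ± 0.10 and Plk1 by 0.91 ± 0.09 on the log2 scale. Among cells of 8000 to 20000 UMIs 5 of the 10 passed as lower, and 7 did so without XX +KTS KO 1 or without XY +KTS KO 2. No S phase gene passed the test, with 2 of 10 lower among cells of 8000 to 20000 UMIs. Fdxr (0.36 ± 0.04), Fdx1 (0.29 ± 0.05) and Star (0.49 ± 0.09) were higher in the members, among 5 of 12 steroid genes, and the farnesyl diphosphate synthase gene Fdps (0.31 ± 0.04) among 4 of 22 cholesterol genes. Without XX +KTS KO 1 these counts were 3 and 1, without XY +KTS KO 2 they were 3 and 2, and without XX +KTS KO 2 they were 5 and 2. Ctrb1 (0.77 ± 0.06), the carboxypeptidase gene Cpa1 (0.70 ± 0.11) and Nppc, which encodes C-type natriuretic peptide (0.57 ± 0.04), were higher. Sp5 (-0.91 ± 0.07), a target of Wnt signalling, and Cdkn1a (-0.66 ± 0.11) were lower. Of 10 Sertoli genes 1, Cst9, was higher in the members, and of 7 pre-granulosa genes 1, Irx5, was lower and none higher. Cst9 lost its call without XX +KTS KO 2 or XY +KTS KO 2, and Irx5 without XX +KTS KO 1 or XY +KTS KO 1. Of the 7 pre-supporting genes only Klhl23 passed (0.15 ± 0.03), and its call was lost without XX +KTS KO 1 (0.13), XX +KTS KO 2 (0.12) or XY +KTS KO 2 (0.15). These calls rest on pairing the 2 classes by library: without the library block 2 genes were called, and without XX +KTS KO 1, XX +KTS KO 2 or XY +KTS KO 2 the count was 178, 459 and 252, with 703 without XY +KTS KO 1.

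Markers of other cell types differed between these 2 classes as well, since the members had not been gated against them and the Foxl2/Fst/Irx3 cells had. All 5 erythroid genes (median 3.602), 4 of 5 endothelial genes (median 0.94) and the 1 immune gene tested were higher in the members, and the 5 largest rises were globins. Without XX +KTS KO 1 these counts were 3, 2 and 0, and the immune gene also lost its call without XX +KTS KO 2 or XY +KTS KO 2. The summed level of the 5 erythroid genes was 277 to 6733 CPM in the members and 97.0 to 332 in the Foxl2/Fst/Irx3 cells, that of the 5 endothelial genes 43.3 to 62.6 and 28.6 to 40.0. With the members that carried UMIs of other cell types left out, none of the 3 erythroid genes tested was called, and 1 of 4 endothelial genes was called lower and none higher. The test then called 949 genes, with all 10 G2/M and 2 of 10 S phase genes lower, 4 of 11 steroid genes higher and 6 of 22 cholesterol genes higher.

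The WT cells that met the rule (459 in all: 42, 37, 130 and 250 in XX WT 1, XX WT 2, XY WT 1 and XY WT 2) were set against the other gonadal somatic cells of WT in the same fit. Here 1470 of 16959 genes were higher (8.67%) and 1757 lower (10.4%), 19% in all. All 7 pre-supporting genes were higher in WT too (median 0.95, all genes -0.04), for example Gadd45g by 1.13 ± 0.09 and Wnt6 by 0.83 ± 0.12, and all 10 G2/M genes were lower (median -1.12), as were 9 of 10 S phase genes and 7 of 9 interstitial genes. Without XY +KTS KO 1 the count was 3619 in place of 3227, and it was 2115 without XY WT 1 and 1820 without XY WT 2. Markers of other cell types, against which the gated WT cells had not been gated, were higher here too: 4 of 5 endothelial genes (median 2.58) and 3 of 5 erythroid genes (median 2.11), none of the latter without XY WT 2. The summed level of the 5 endothelial genes was 23.7 to 207 CPM in the gated WT cells and 44.6 to 60.8 in the others, and that of the 5 erythroid genes 245 to 4184 and 260 to 727. With cells that carried UMIs of other cell types left out, no erythroid gene was called, 1 endothelial gene was lower and none higher, and the test called 3429 genes, with 7 of 7 pre-supporting genes higher and 10 of 10 G2/M genes lower. Of the steroid list 6 of 13 genes were higher, with Star at 31.6, 4.96, 48.2 and 48.7 CPM in the gated WT cells against 10.1, 6.35, 15.0 and 25.1 in the others (1.21 ± 0.19, edgeR's quasi-likelihood test, FDR 0.00041). Cpa1 was higher in the gated WT cells than in the other WT cells, at 1450, 802, 1005 and 650.1 CPM against 173 to 231 (2.10 ± 0.14), and stood at 74.0 to 163 in the members. In XY WT, 56.2 and 56.0% of the gated cells had 2 or more UMIs of Sox9, against 18.1 and 2.67% in XY +KTS KO.

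The difference between gated and other cells differed itself between the genotypes for 277 of 16959 genes (1.63%), 121 with a higher (0.713%) and 156 with a lower value (0.92%) in the +KTS KO. Of 11 Sertoli genes 5 were among them, each with a higher value in the +KTS KO. The other cells include cells with Sertoli transcripts, and their part in these values was not tested. A UMI of Amh was found in 27.2 and 22.5% of the other cells of XY WT 1 and XY WT 2. Among their gated cells it was found in 45.4 and 20.4%, and in no gated XX WT cell. Set directly against the gated WT cells in XY, Dhh, Aard and Cst9 of these 5 genes were lower in the members. Amh and Ptgds did not pass that test. For Amh the difference was 2.04 ± 0.10 in the +KTS KO and -0.22 ± 0.14 in WT (+KTS KO minus WT 2.26 ± 0.17, edgeR's quasi-likelihood test, FDR 9.3e-06), where its level in XY WT was 213 and 51.1 CPM in the gated cells and 193 and 77.3 in the others. Dhh (2.13 ± 0.19), Ptgds (2.03 ± 0.14), Cst9 (1.38 ± 0.22) and Aard (1.22 ± 0.14) also had a higher value, and Cst9 lost its call without XY WT 2 (1.11). Cdkn1c, higher by 1.29 ± 0.08 in the WT gated cells and by 0.59 ± 0.08 in the members, differed the other way (-0.70 ± 0.11, FDR 0.0060), and so did the G2/M genes Cdk1 (-0.999 ± 0.15), Aurka (-0.81 ± 0.17) and Plk1 (-1.01 ± 0.24) and the keratin gene Krt7 (-1.16 ± 0.18). Without XY WT 2 the calls on Krt7 (-1.07), Cdk1 (-0.97), Aurka (-0.78) and Plk1 (-0.86) were lost, and those on Aurka and Plk1 also without XX +KTS KO 1 (-0.80 and -0.93), XY +KTS KO 2 (-0.77 and -0.96) or XY WT 1 (-0.69 and -0.90). No pre-supporting or steroid gene differed by this test. Leaving out single libraries gave 44 genes (without XY WT 2) to 625 (without XY +KTS KO 1), with 75 without XY WT 1 and 130 without XY +KTS KO 2, and without the library block none was called.

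The next comparisons, over both sexes, in XX and in XY, share their libraries. With the same thresholds in both genotypes and the library as replicate, 291 of 12003 genes were higher in the +KTS KO cells than in the WT cells (2.42%) and 358 lower (2.98%), 5.41% in all, as the mean of the XX and XY differences. The -KTS KO libraries held 3 to 17 such cells each and were under the minimum of 20 cells for this fit. Lmo1, a LIM-only transcriptional cofactor, stood at 108, 119.7, 66.7 and 127 CPM in the +KTS KO and at 3.95, 4.96, 23.0 and 24.0 in XX WT 1, XX WT 2, XY WT 1 and XY WT 2 (log2 difference 3.36 ± 0.31, edgeR's quasi-likelihood test, FDR 0.00048). Mgam, which encodes maltase-glucoamylase, stood at 32.5, 55.1, 26.9 and 30.9 against 3.95, 1.65, 1.61 and 6.004 (3.35 ± 0.39), and Gsg1l, an auxiliary subunit of glutamate receptors, at 48.4, 45.3, 42.7 and 40.2 against 3.95, 4.96, 10.2 and 6.21 (2.89 ± 0.25). The groups did not overlap for any of the 3, which was a condition for naming them. The gated cells of XX WT 1 and XX WT 2 held 506811 and 604811 UMIs in all, so levels of a few CPM there rest on a few UMIs. In the other gonadal somatic cells of the +KTS KO, Lmo1 stood at 74.3 to 131 and Mgam at 16.8 to 37.8. Rsph10b (3.14 ± 0.31), Arhgef16 (2.41 ± 0.29), Tbxa2r (2.22 ± 0.28) and Ncam1 (1.36 ± 0.20) were higher as well and kept their calls when any single library was left out.

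Spp1, which encodes osteopontin, was the clearest of the genes that were lower in the +KTS KO cells, at 15.2, 30.3, 14.0 and 10.9 CPM against 112 and 74.4 in XX WT and 1008 and 816 in XY WT (-4.15 ± 0.25, edgeR's quasi-likelihood test, FDR 9.3e-05). Rarres1 stood at 0 to 0.818 against 9.63 to 46.3 (-5.36 ± 0.56) and Rgn, which encodes regucalcin, at 1.24 to 6.43 against 23.1 to 41.4 (-3.64 ± 0.41). These 3 kept their calls when any single library was left out. Among thinned other gonadal somatic cells, a Spp1 UMI was found in 2.0 to 3.5% in the +KTS KO and 8.5 to 47.9% in WT. The lower Spp1 of the +KTS KO was thus not particular to the gated cells. Pnmt, as a description, stood at 68.9 to 125 in the gated +KTS KO cells against 3.95 to 57.8 in the gated WT cells.

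Of the lists, 3 of 11 Sertoli genes (Aard, Mro and Cst9) and 2 of 6 pre-granulosa genes (Kitl and Lgr5) were lower in the +KTS KO cells. These values are means of the XX and XY differences. By the XX comparison none of the 11 Sertoli genes passed (median 0.09), and by the XY comparison 6 were lower. Amh, which did not pass in XX, had a UMI in 26.9 and 15.8% of the members of XX +KTS KO 1 and XX +KTS KO 2. No gated cell of XX WT 1 or XX WT 2 had one. Nr5a1 and Cdkn1c, given below, passed by the XX comparison and not by the XY comparison. The test of whether the genotype effect differed between the sexes called no Sertoli gene, nor Nr5a1 or Cdkn1c. Over both sexes, 2 of 4 fetal Leydig genes (Cyp17a1 and Lhcgr), 3 of 22 cholesterol genes (Mvk, Mvd and Scarb1) and 2 of 9 gonad transcription factors (Nr5a1 and Emx2) were higher in the +KTS KO cells. Without any 1 of the 4 WT libraries no fetal Leydig gene passed, Cyp17a1 and Lhcgr included, and Lhcgr also lost its call without XX +KTS KO 2. No Sertoli gene passed without XX WT 1 or XX WT 2, and 1 did without XY WT 1. The cholesterol count was 0 without XX WT 1 and 1 without XX WT 2, XY WT 2 or XX +KTS KO 2. That of the transcription factors was 0 without XX WT 1 or XX WT 2 and 1 without XX +KTS KO 1, XX +KTS KO 2 or XY WT 1, where Emx2 lost its call. Of the pre-granulosa genes none was lower without XX WT 1, and 1 without XX WT 2 or without XY WT 2: Kitl lost its call in all 3 cases and Lgr5 in the first. Nr5a1 was higher in the +KTS KO cells, at 75.5, 99.3, 120.4 and 81.5 CPM against 31.6, 33.1, 73.3 and 73.1 (0.92 ± 0.17, edgeR's quasi-likelihood test, FDR 0.012), and lost the call without XX WT 1 (0.91) or XX WT 2 (0.95). Mvd was higher by 0.85 ± 0.14 and lost the call without XX WT 1 (0.86). Cst9 was lower by 2.02 ± 0.36 on the log2 scale, with -2.01 and no call without either XX WT library, and Cdkn1c by 1.04 ± 0.22, with values of -0.91 to -1.14 and no call without XX +KTS KO 2, XX WT 1, XX WT 2 or XY WT 1. Of the 7 pre-supporting genes 1 was higher and 1 lower, of 10 steroid genes 1, Cyp17a1, was higher, and no inhibin or activin gene passed, with 2 higher without XY +KTS KO 2. No pre-supporting gene was higher without XX +KTS KO 1, XX +KTS KO 2 or any 1 of the WT libraries. The lower one, Sprr2d, lost its call without XX WT 1, XX WT 2 or XY WT 2. Among the genes that did not pass, the difference was for Runx1 0.59 ± 0.16 (FDR 0.067), for Wnt6 0.50 ± 0.14 (FDR 0.068) and for Fdxr 0.00 ± 0.19. XX WT 1 and XX WT 2 were the libraries with the fewest cells, and without them 189 and 245 genes were called. The count was 431 and 374 without XX +KTS KO 1 and XX +KTS KO 2, 355 and 370 without XY WT 1 and XY WT 2, and 937 without XY +KTS KO 1, with 5 Sertoli genes lower and 3 pre-supporting genes higher in that last case.

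**Figure D5:**
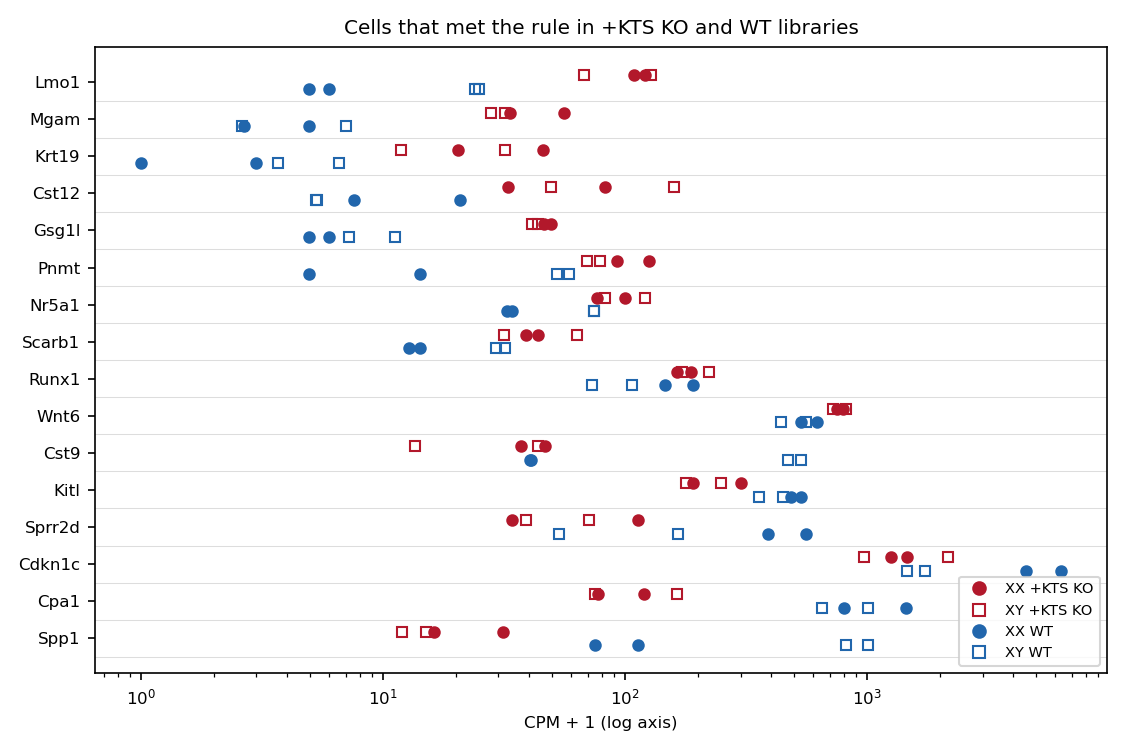
Level of 16 genes in the cells that met the rule, per library (CPM plus 1, log axis; filled circles XX, open squares XY; red +KTS KO, blue WT). Lmo1, Mgam and Gsg1l sit above every WT library in the +KTS KO and Spp1 below; Pnmt is low in the 2 XX WT libraries and Spp1 highest in the 2 XY WT libraries.

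In XX alone 41 of 12003 genes were higher in the +KTS KO cells (0.342%) and 97 lower (0.808%), 1.15% in all, with 0 called without XX WT 1, 12 without XX WT 2, 35 without XX +KTS KO 2, 78 without XX +KTS KO 1, and 258 and 252 without XY +KTS KO 1 and XY +KTS KO 2. With thresholds of 3 UMIs of Cyp11a1 and Inha, which left fewer WT cells, none was called. DESeq2 called 374 with all libraries. Lmo1 (4.69 ± 0.54), Olfml3 (3.24 ± 0.36) and Gsg1l (3.42 ± 0.42) were higher and lost their calls without XX WT 1, at 4.57, 3.26 and 3.29, and without XX WT 2, at 4.90, 3.25 and 3.62 (edgeR's quasi-likelihood test, FDR 0.0064, 0.0064 and 0.0075 with all libraries). Olfml3 stood at 181 and 217 CPM in XX +KTS KO and at 21.7 and 21.5 in XX WT, but at 140.3 and 188 against 211 and 134 in XY. It did not pass the test of whether the genotype effect differed between the sexes. Nr5a1 was higher by 1.47 ± 0.26 and Cdkn1c, at 1465 and 1260 against 6330 and 4539, lower by 1.96 ± 0.31 on the log2 scale, and both lost their calls without XX +KTS KO 2 (1.31 and -1.80), XX WT 1 (1.45 and -1.68) or XX WT 2 (1.52 and -2.16). Myl1, a myosin light chain gene, was lower (-4.42 ± 0.60), at 11.2 and 8.74 against 221 and 218, and lost its call without XX WT 1 (-4.39) or XX WT 2 (-4.41).

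In XY 238 of 12003 genes were higher in the +KTS KO cells (1.98%) and 413 lower (3.44%), 5.42% in all. Sertoli genes were lower: 6 of 11 passed (median -2.42, all genes 0.04), with Cst9 at 12.6 and 42.8 CPM against 535 and 470.4 in XY WT (-4.12 ± 0.48, edgeR's quasi-likelihood test, FDR 0.0019), Mro at 2.63 and 1.98 against 27.3 and 25.7 (-3.64 ± 0.30) and Aard at 84.2 and 37.7 against 599 and 329.6 (-3.06 ± 0.40). These 3 kept their calls when any single library was left out, as did Tesc (-5.62 ± 0.57), which encodes the calcium-binding protein tescalcin, and Spp1 (-6.29 ± 0.37). Sox9 stood at 106 and 9.39 against 257 and 277 and did not pass (-2.42 ± 0.73, FDR 0.087), nor did Amh (-1.01 ± 0.81). At least 2 UMIs of Sox9 were found in 18.1 and 2.67% of the XY +KTS KO members and in 56.2 and 56.0% of the gated XY WT cells. The gated cells of the genotypes thus differed in their make-up, and the part of this in the XY comparison was not tested. The count of lower Sertoli genes was 8 without XY +KTS KO 1, 3 without XY WT 1 and 4 without XY WT 2.

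Of 10 Wnt genes 5 were higher in the XY +KTS KO cells than in the XY WT cells and 1, Lgr5, lower. Of 6 pre-granulosa genes tested 3 were higher (Cdkn1b, and Wnt4 and Rspo1, which are in both lists) and 1, again Lgr5, lower, and of 7 pre-supporting genes 2 were higher (Runx1 and Klhl23), with none without XY WT 1 and 1 without XY WT 2. Wnt4 stood at 517 and 392 CPM against 134 and 181 (1.45 ± 0.24, edgeR's quasi-likelihood test, FDR 0.0092), the Wnt-responsive factor gene Lef1 at 38.0 and 34.9 against 5.35 and 11.8 (1.91 ± 0.32) and Runx1 at 222 and 172 against 71.7 and 106 (1.07 ± 0.23). These 3 genes lost their calls without XY WT 1, at 1.27, 1.58 and 0.84. Rspo1, the Wnt agonist of the early ovary, was higher by 1.75 ± 0.36 and lost its call without XY WT 1 (1.82) or XY WT 2 (1.63). Wfdc1 (3.54 ± 0.52), Mgam (2.66 ± 0.42) and Rsph10b (3.805 ± 0.40) were higher in each leave-out. Of the G2/M genes 5 of 10 were lower, among them Cdk1 at 32.4 and 39.8 against 174 and 116 (-2.04 ± 0.33), which gave -1.70 and no call without XY WT 1. The gated XY WT cells held more endothelial transcripts, with a summed level of 5 genes of 207 and 117 CPM against 49.1 and 43.3 in the XY +KTS KO members, and 4 of these 5 genes were called lower in the +KTS KO (1 without XY +KTS KO 2 and none without XY WT 1). With gated cells that carried UMIs of other cell types left out, 3 of the 5 endothelial genes were tested and none was called lower, and Pecam1 moved from -1.64 to 0.08. The test then called 601 genes in place of 651, with 6 of 11 Sertoli genes lower, 5 of 10 Wnt genes higher, 3 of 6 pre-granulosa genes higher and 6 of 10 G2/M genes lower. Without XY +KTS KO 1 the test called 926 genes, with 4 Wnt genes higher and 1 G2/M gene lower. Without XY WT 1 and without XY WT 2, 144 and 278 genes were called, with 0 and 3 Wnt genes higher, 0 and 1 pre-granulosa genes higher and 0 and 2 G2/M genes lower.

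The test of whether the genotype effect differed between the sexes called 1 gene, Spp1 (XX minus XY 4.29 ± 0.46, edgeR's quasi-likelihood test, FDR 0.030; 0.00833% of 12003 genes). The count moved between 0 and 85 when single libraries were left out and was 33 without XY +KTS KO 1. Between XX and XY members no autosomal gene was called among 11572 (0%) by edgeR's quasi-likelihood test, with 147 at an unadjusted p under 0.05; DESeq2 called 1. The count was 100 without XY +KTS KO 2 and 0 without XY +KTS KO 1. Without a filter on low counts it was 125. Each sex had 2 libraries, of which XY +KTS KO 1 held 227 members. The XX and XY libraries were separated by Xist, at 567 and 532 CPM in the XX members and at most 0.0348 in the XY members.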

How the data were processed

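Single-cell 3′ libraries (10x Genomics) of trypsin-dissociated gonads of mouse embryos at embryonic day 12 were analysed from the filtered matrices that the authors deposited. Their values are raw UMI counts per gene and barcode, made with Cell Ranger 6.0 on mm10 according to the submitters' processing notes, with 1 library per matrix. Groups and replicate numbers were taken from the labels. Depths per library are given with the results. Symbols and positions come from the deposited feature lists and the mm10 annotation, which matched 32158 of 32285 features.

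Barcodes were kept from 1000 detected genes upwards and up to 10% of UMIs from mitochondrial genes. Gonadal somatic cells had fewer than 10 UMIs of germ cell genes and fewer than 3 UMIs of each set of endothelial, immune, erythroid, perivascular and duct genes. The other gonadal somatic cells are all of these outside the rule, so they include Foxl2/Fst/Irx3 cells and cells with Sertoli transcripts. Doublets were kept, and an alternative left out the highest Scrublet scores (0.8% per 1000 barcodes; scanpy 1.11.5, Python 3.11.15). UMIs were summed per library and class, for classes of at least 20 cells. The sums were tested with edgeR 4.0.16 (R 4.3.3; TMM, filterByExpr, quasi-likelihood F-test, Benjamini-Hochberg over all genes tested, FDR 0.05). Library was a block for classes of the same libraries, and group means were used between genotypes and sexes. Values are log2 fold changes ± SE, and levels are CPM, the UMIs of a gene per 1000000 UMIs of the class. DESeq2 1.42.0 and the other alternatives are compared in the closing section. The scripts were tested on simulated counts. In the simulations of the members against the other somatic cells and, by less, of the +KTS KO against WT, the share of false calls exceeded the FDR threshold, so counts of calls include more false ones than the threshold implies.

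Named genes are the 9 genes of the rule with Pnmt and Wt1, the members of the marker and pathway lists, and for each comparison the 10 largest rises and 10 largest falls. The latter had to pass the test with at least 20 CPM in the higher class, and to change the same way in every library or not overlap between groups. The members and the lists were chosen with earlier results of these data known. Some named genes are not reported here. A gene's 3′ tags can be shared with near-identical copies, which concerns the globin genes, Hsd3b1 and Hsd3b6, and the Sprr2 genes.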

Additional observations from a re-analysis of the deposited data

Results flagged for a closer look

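The genotype effect on Spp1 (osteopontin) differed between the sexes. The +KTS KO cells that met the rule were lower than their WT counterparts by a larger amount in XY, and XX minus XY was 4.29 ± 0.46 (edgeR's quasi-likelihood test, FDR 0.030). The level of Spp1 was 15.2 and 30.3 CPM in the XX +KTS KO libraries, 14.0 and 10.9 in those of XY +KTS KO, 112 and 74.4 in XX WT and 1008 and 816 in XY WT, so the genotypes differed in both sexes and XY WT stood highest. The call was lost without XX WT 1, XX WT 2 or XY WT 1.

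The difference between gated and other gonadal somatic cells was itself different between the +KTS KO and WT for 277 genes by the test of that difference. Amh, at 2.04 ± 0.10 in the +KTS KO and -0.22 ± 0.14 in WT, is an example. The other cells of XY WT included cells with Amh transcripts, and their part in this difference was not tested. The count of genes was 44 without XY WT 2 and 625 without XY +KTS KO 1.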

How the results depend on the processing

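The counts of genes called moved by over 1.5 times under several alternatives, and the causes were not tested. With DESeq2 in place of edgeR the counts were 983 for +KTS KO against WT over both sexes (649 with edgeR), 374 in XX (138), 123 for the difference of the sexes (1) and 1 between XX and XY members (0). Without a filter on low counts they were 1376 for the members against the Foxl2/Fst/Irx3 cells (745), 1474 over both sexes, 670 in XX, 1555 in XY (651), 452 for the difference of the sexes, 125 between XX and XY members and 657 for the difference of the class effects between genotypes (277). With thresholds of 3 UMIs they were 152 over both sexes, 0 in XX, 361 in XY, 0 for the difference of the sexes, 2088 for WT gated against other cells (3227) and 151 for the difference of the class effects. The mean WT share was 5.13% at thresholds of 1 UMI and 1.07% at 3 (2.08% at 2), and the share in XY +KTS KO 1 was 8.87% and 1.62% (3.38% at 2). Among cells of 8000 to 20000 UMIs the counts were 334 against the Foxl2/Fst/Irx3 cells, 0 for the difference of the sexes and 124 for that of the class effects. The difference of the sexes gave 5 with the gate against other cell types and 5 without the highest Scrublet scores, where that of the class effects gave 174.

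Without the library block, 4207 genes were called for the members against the other cells (8540 with it), 2 against the Foxl2/Fst/Irx3 cells, 1248 in WT and 0 for the difference of the class effects. The labels' replicate numbers gave no sign of pairing libraries of different groups over all genes, as the correlations of their deviations ran from -0.0498 to 0.104. With 2 libraries per group this check cannot exclude a batch that part of the genes share. A replicate block gave 697 genes over both sexes, 198 in XX, 719 in XY, 52 for the difference of the sexes and 0 between XX and XY members. Leaving out a replicate number of every group gave 4313 to 8199 for the members against the other cells, 385 to 675 against the Foxl2/Fst/Irx3 cells, 2010 to 2215 in WT and 158 to 784 for the difference of the class effects. It left no residual degrees of freedom between genotypes and was not run there. Leaving out 1 library at a time, chosen after seeing the data, gave 6494 to 8816, 178 to 703, 1820 to 3619 and 44 to 625 in the same order. Between genotypes it gave 189 to 937 over both sexes, 0 to 258 in XX, 144 to 926 in XY, 0 to 85 for the difference of the sexes and 0 to 100 between XX and XY members. The lone library of a group was then assumed to vary like the others. The fit of the +KTS KO and WT groups alone is the same fit, as no -KTS KO library reached 20 gated cells.

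Of 3972 named-gene values under other settings, 3479 kept direction and call, 470 kept direction only and 23 reversed. In the members against the other cells, the values in the depth window and with the gate against other cell types were -1.58 and -1.73 for Emcn, -0.21 and -0.32 for Hba-a1, -0.14 and -0.19 for Hba-x, -0.16 and -0.41 for Hbb-bt, -0.18 and -0.24 for Hbb-y, and -1.83 and -1.39 for Hsd3b6, which was -0.22 without the highest Scrublet scores. Against the Foxl2/Fst/Irx3 cells they were -0.20 and -0.073 for Hba-a1, -0.25 and -0.064 for Hba-x and -0.26 and -0.10 for Hbb-y, with -0.048 for Hbb-bt with the gate. At thresholds of 3 UMIs, where XX WT 1 was the only XX WT library, Mro reached 1.92 over both sexes and Sprr2a3 5.48 in XX. With the gate Pecam1 reached 0.084 in XY. The XX WT libraries gave 42 and 37 gated cells, the fewest of the 8 libraries compared, which limits what the XX comparison can show.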

Other observations

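Of 10 Wnt genes 4 were higher than in the other gonadal somatic cells of the +KTS KO and 4 lower, shares that were not read as a result against a background of 26.7% and 23.6% of all genes tested. The values of the members of this list are given as a description. The ligands and agonist Wnt4, Wnt6 and Rspo1 and Znrf3 (0.35 ± 0.10, SE), a ligase gene that Wnt signalling itself induces, were higher. The lower ones were Wnt5a and the feedback and target genes Axin2, Nkd1 and Sp5. Axin2 stood at 9.88, 7.47, 19.002 and 8.77 CPM in the members of XX +KTS KO 1, XX +KTS KO 2, XY +KTS KO 1 and XY +KTS KO 2 against 17.8, 14.3, 32.2 and 15.6 in the other cells (-0.82 ± 0.09, edgeR's quasi-likelihood test, FDR 4.0e-06). Nkd1 stood at 30.8, 10.8, 71.3 and 13.2 against 48.3, 36.4, 89.1 and 40.2 (-1.05 ± 0.16), and Sp5 at 13.7, 6.26, 26.0 and 13.8 against 44.0, 24.4, 58.3 and 39.3 (-1.58 ± 0.11). All 3 were lower in 4 of 4 libraries. Lef1 (0.02 ± 0.08, FDR 0.82) and Lgr5 (-0.63 ± 0.29, FDR 0.083) did not pass edgeR's quasi-likelihood test.

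Of 16 immediate early genes 3 were higher in the members and 5 lower, and 7 were higher and 4 lower without XX +KTS KO 2. These counts were not read as a result against a background of 26.7% higher and 23.6% lower among all genes tested. The factor genes Klf2 (1.16 ± 0.12) and Klf4 (0.94 ± 0.08) were higher and Jun lower (-0.68 ± 0.08), while Fos did not pass (0.19 ± 0.11, edgeR's quasi-likelihood test, FDR 0.18). Fos stood at 821 CPM in the members and at 617 in the other cells of XY +KTS KO 1, against 87.6 to 114 and 76.6 to 139 in the other 3 libraries, so the high level of that library was not particular to its members. Of 4 genes of the supporting-like cells of the rete, Pax8 was higher (1.25 ± 0.20), at 16.4, 14.4, 16.4 and 14.6 against 9.68, 3.65, 12.2 and 5.01, and Igfbp3 (-1.96 ± 0.19) and Ncam1 (-0.18 ± 0.06) were lower. Pax8 was also higher in the gated WT cells than in the other WT cells. Against the Foxl2/Fst/Irx3 cells it was lower in the members, a call that was lost without XX +KTS KO 2 or XY +KTS KO 2. Of 4 tested chromaffin and neural crest genes, 1, Hand2, was lower (-3.55 ± 0.23) and none higher. Of 4 perivascular genes 1 was higher and 3 lower, and of 4 duct genes 1 was higher and 1 lower. Of the 2 tested germ cell genes outside the rule 1, Sycp3, was higher (0.74 ± 0.25) at no more than 2.34 CPM. The counts of these short lists, with those of the rete and chromaffin lists, are a description beside the same background.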
